A study of Mus musculus with 2 samples.

Results

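Muscleblind-like proteins bind RNA at short motifs with a GC step between pyrimidines and act on alternative splicing in the nucleus, and on mRNA in the cytoplasm, where they often bind 3′ UTRs. Loss of their function in muscle is a feature of myotonic dystrophy. The tags of Mbnl2 were followed here over 5 genes, Lnp, Abi2, Csda, Tlk2 and Adk, out of the 22380 protein-coding genes of the mm9 GENCODE annotation. The genes were chosen because the study names them among RNAs spliced or bound by muscleblind proteins in muscle, and Lnp, Tlk2 and Adk come from a list that the study drew up on these same samples. For each gene, every tag on its strand was counted over the gene and the 10 kb after its annotated 3′ end, and assigned to 3′ UTR, other exon, intron or downstream sequence.

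Lnp encodes Lunapark, a membrane protein of the junctions of the tubular endoplasmic reticulum (ER). Abi2 encodes an adaptor of the WAVE complex, which drives branching of actin filaments. Csda (now Ybx3) encodes a cold shock domain protein that binds DNA and RNA. Tlk2 encodes a Tousled-like kinase, which phosphorylates histone chaperones. Adk encodes adenosine kinase, which turns adenosine into AMP. The comparison asked whether Mbnl2 occupied these RNAs more when Mbnl1 was missing.

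HITS-CLIP sequences the short RNA fragments (tags) that stay crosslinked to an immunopurified protein. Quadriceps muscle came from WT mice (Mbnl1+/+) and from Mbnl1 KO mice (Mbnl1-/-, a germline loss of exon 3 on both alleles), 3 mice of each, 15 to 16 weeks old, without any further treatment of the animals. The labels give the strain of both groups as C57BL/6, while the methods name a C57BL/129 background for the compound knockouts. RNase A was used at 38.6 and 0.0386 U/ml. The authors deposited 1 merged table per genotype, so the difference has no replicate check, and no p-value is given. The ratios below are KO over WT ratios of normalised tags (tags per 1000000 tags of the table), with exact 95% Clopper-Pearson intervals in brackets. The intervals cover counting error only and compare these tables, not the genotypes. A tag number moves with the amount of the RNA in the muscle as well as with its binding, and these cannot be told apart here.

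The WT table held 343554 tags from 5176203 reads and the KO table had 476543 tags from 50329234 reads. Tags whose reference sequence was at least 70% 1 base were 44.0% of WT and 16.97% of KO tags on assembled chromosomes. The 4466 protein-coding genes that reached 20 tags had a median ratio of 1.68. The rows of the WT table ran through the chromosomes 3 times and those of the KO table did so 6 times, in sorted runs of 47008 to 156970 and 11563 to 158417 tags. No position occurred more than once within a run. What a run stands for is not given in the sources used here, so runs are described 1 by 1, with no mean and no test. Single-base tags made up 37.1% to 51.5% of the WT runs and 10.8% to 45.2% of the KO runs. All 7 muscle fibre markers listed (such as Ttn, Myh4 and Ckm) carried tags, with 866 WT and 2956 KO tags in sum. The sums were 194 and 870 tags for 4 fibroblast markers, 75 and 115 for 4 endothelial markers, 33 and 31 for 4 macrophage markers, and 7 and 55 for 5 adipocyte markers. Plin1 (adipocyte) had 0 WT tags. All 7 muscle fibre and all 4 fibroblast markers had intervals above 1, as had 36.9% of the 4466 genes. Among endothelial markers, Cdh5 had a ratio of 3.05 (1.65 to 6.09) and Tek one of 0.536 (0.310 to 0.915). The part of cell composition in the values of the 5 genes was not tested. Over Mbnl1 itself, 100 WT and 452 KO tags lay in the gene body. The part that annotated forms share of the exon with its start codon (chr3:60333071-60333726) held 0 and 0 tags, so the tags do not check the label.

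The sites that carry the tags are shown first. Tags of both tables that overlap on a strand were joined into clusters, and the 30 bases around the tallest point of a cluster are printed on the transcript strand of mm9. Capitals mark the muscleblind motif, searched on that strand as the 4 words made of T or C, then GC, then T or C, with overlapping matches allowed. The 3 tallest sites of Lnp, all after its annotated 3′ end, are those of its largest clusters.
Lnp, chr2:74357217-74357246: tcagTGCTtaactcatgCGCTTGCTtggca
Lnp, chr2:74354160-74354189: gtgTGCTctccttTGCTagcttatggagtt
Lnp, chr2:74357910-74357939: cttttcagctcccagcttgggtggctTGCT
The sites of Csda are its largest cluster, in the 3′ UTR, and its second largest, in the intron before exon 6.
Csda, chr6:131315018-131315047: gttgttcattttggaTGCTggTGCTaaact
Csda, chr6:131326431-131326460: atagattgattTGCTctTGCTttccTGCTg
The sites of Adk are its largest cluster, which lies in an annotated copy of 7SK RNA, and both larger clusters of its 3′ UTR.
Adk, chr14:22082986-22083015: gggtataggagtagctgCGCTccccTGCTa
Adk, chr14:22267721-22267750: gttcagactgtaaccTGCTtactgatggta
Adk, chr14:22267269-22267298: ctcattagtaacttagagggctcagTGCTa
The largest cluster of Abi2, in the 3′ UTR, and the first of 5 equally large clusters of Tlk2, in an intron, hold none of these words. Another intronic cluster of Tlk2 of the same size, which falls outside the rule for named clusters, holds 4 of them. Of the 5 Tlk2 sites, 2 hold a motif word.
Abi2, chr1:60534424-60534453: ttttaatgcactgttgcatgagactgcatt
Tlk2, chr11:105080679-105080708: tcctcaagttttgggattacaggaatgtca
Tlk2, chr11:105082074-105082103: gtcctaTGCTTGCTTGCTcTGCTtgcattt

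Lnp stood out among the 5 genes by its number of KO tags, and most of them lay past the gene's annotated end. Lnp (ENSMUSG00000009207.9, chr2:74358348-74417492, minus strand) had 25 WT and 172 KO tags with its downstream window, which is 72.8 and 361 normalised tags. The ratio was 4.96 (3.25 to 7.88), and 217 of the 4466 genes (4.86%) had a higher one. Adk had 59 and 117 tags, Tlk2 13 and 26, Csda 11 and 29 and Abi2 11 and 16, so that each of these had fewer KO tags than Lnp. The ratios of Csda, 1.90 (0.922 to 4.22), Tlk2, 1.44 (0.715 to 3.06), Adk, 1.43 (1.04 to 1.99), and Abi2, 1.05 (0.457 to 2.50), lay lower, with intervals that overlap each other. An interval above 1 was found for 2 of the 5 genes, Lnp and Adk, and for 36.9% of the 4466 genes. The number fell to 1, Lnp, in 10 of the 23 settings run. A ratio of at least 2 was found for 1 of the 5, Lnp, and for 39.2% of the 4466. Among 5 genes, the first share is near the background of all genes and the second below it. Lnp and Adk are from the list that the study drew up on these same samples, so their values are no independent check. Summed over the 5 genes, 119 WT tags stood against 360 KO tags, and 94 against 188 without Lnp.

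**Figure D1:**
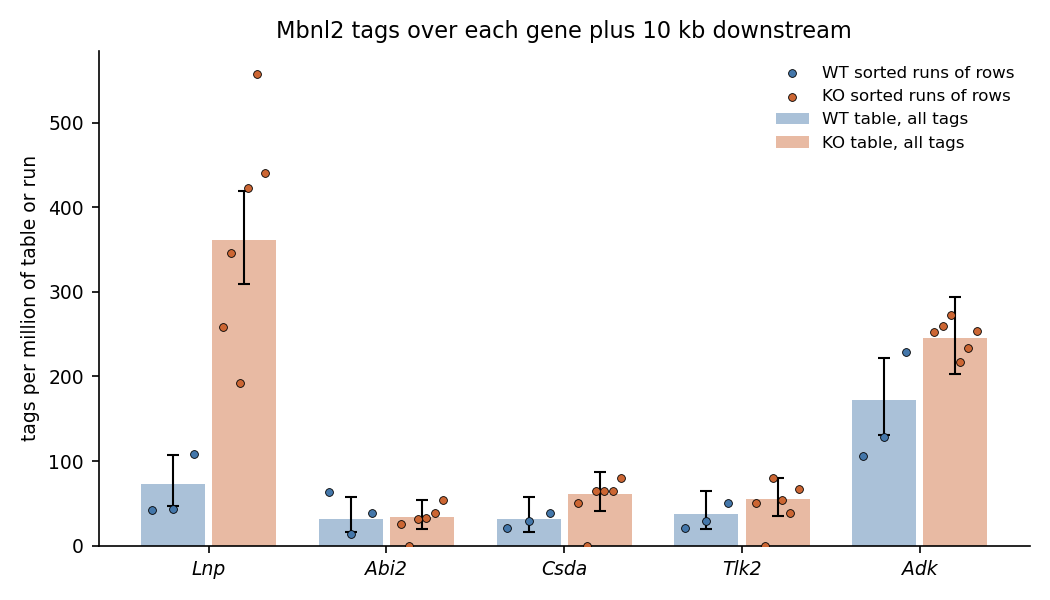
Normalised tags (per 1000000 tags) over each gene and the 10 kb downstream, in the WT (blue) and KO (orange) tables. Bars show the whole table with exact 95% Poisson intervals (counting error only) and points the sorted runs of its rows; the 6 KO points of Lnp lie between 193 and 557, above its 3 WT points (42.5 to 108), while the points of the other genes overlap.

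The runs of rows show how evenly these tags were spread. Lnp had 42.5, 43.0 and 108 normalised tags in the 3 WT runs, and 193 to 557 (median 385) in the 6 KO runs. Every KO run of Lnp lay above every WT run, which held for 9.65% of the 4466 genes. A gene with 0 tags in the smallest KO run, of 11563 tags, cannot meet this rule. Only 113 of the genes had more tags than Lnp, so this share is not one of genes at a like depth. Adk had 106, 129 and 229 normalised tags in the WT runs and 217 to 273 (median 253) in the KO runs. Here the highest WT run lay above the lowest KO run. Csda had 21.3, 28.7 and 38.2 in WT runs and 0 to 80.1 (median 64.5) in KO runs. The value of 0 came from the KO run of 11563 tags, the smallest, which also held no tag of Tlk2 or Abi2. Tlk2 had 21.3, 28.7 and 51.0 in WT runs and 0 to 80.2 (median 52.4) in KO runs. Abi2 had 63.8, 14.3 and 38.2 in WT runs and 0 to 53.4 (median 32.3) in KO runs. The runs of Csda, Tlk2 and Abi2 overlapped between the tables. Of the 25 WT tags of Lnp, 17 came from the last WT run, and without it the ratio of Lnp was 8.42.

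**Figure D2:**
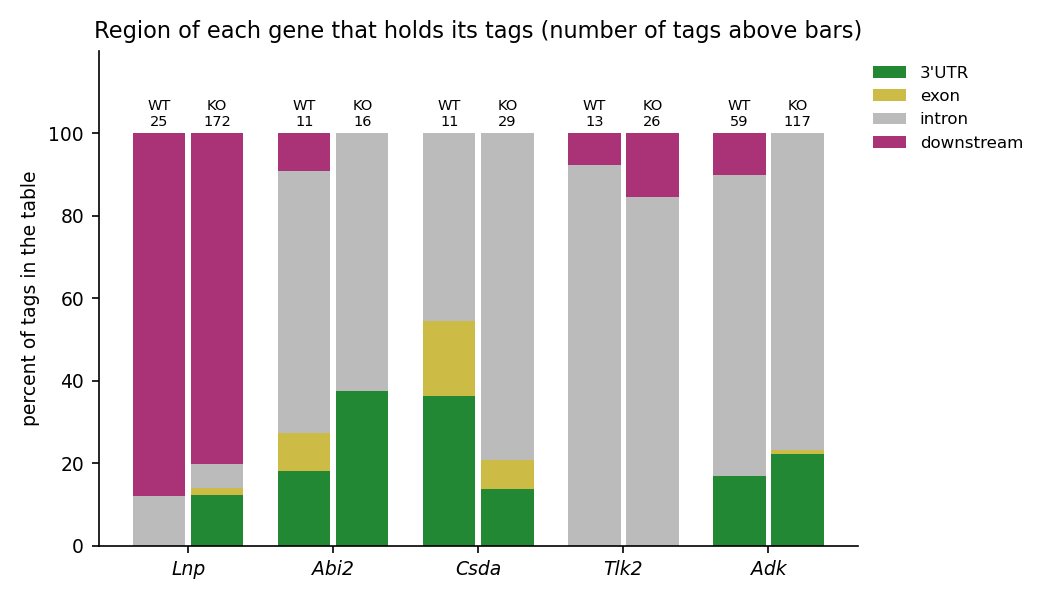
Percent of each gene's tags in 3′ UTR, other exon, intron and downstream sequence (10 kb after the annotated 3′ end), in WT and KO, with the number of tags above each bar. Downstream tags made up 88.0% and 80.2% at Lnp, while introns held 92.3% and 84.6% at Tlk2 and 72.9% and 76.9% at Adk.

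The tags of Lnp lay in a stretch after its annotated 3′ end. In this window 22 WT and 138 KO tags were counted, 64.0 and 290 normalised tags, with a ratio of 4.52 (2.87 to 7.45). Downstream sequence held 88.0% of the WT tags of the gene (68.8 to 97.5) and 80.2% of its KO tags (73.5 to 85.9). The median downstream share over the 4466 genes was 3.28%, and 130 of them (2.91%) had a higher share than Lnp in the pooled tables, 81.2%. The tags began 372 nt after the annotated end in both tables and reached 4434 nt in WT and 5220 nt in KO. Within 5 kb lay 22 of 22 WT and 136 of 138 KO tags. Among the 213 genes with at least 20 downstream tags, 54.0% had a downstream interval above 1, and their median ratio was 2.48. In the annotated 3′ UTR (1998 nt) 0 WT tags stood against 21 KO tags, with an interval from 3.75 upward, and 0 WT tags, taken as up to 3 tags, allow up to 8.73 normalised tags. An interval above 1 in the 3′ UTR was common, at 78.0% of the 862 genes with at least 20 tags there. The introns of Lnp held 3 and 10 tags (ratio 2.40, 0.619 to 13.6) and its other exons 0 and 3. None of the 197 tags was a single-base tag, and the opposite strand of the gene body held 3 WT and 2 KO tags.

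**Figure D3:**
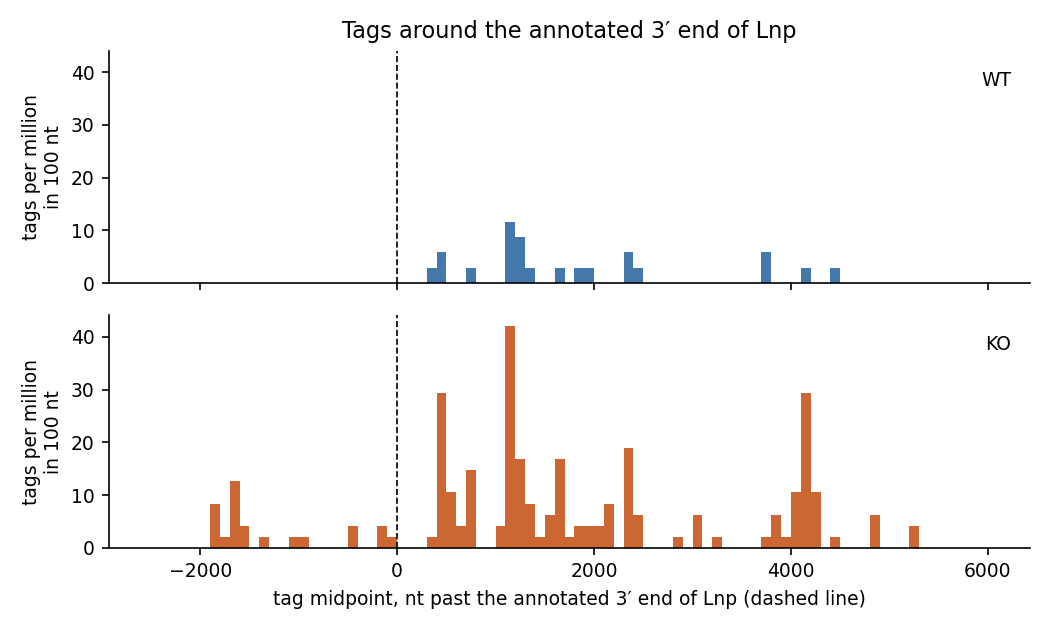
Normalised tags in steps of 100 nt by the distance of their midpoint from the annotated 3′ end of Lnp (dashed line), in WT (above) and KO (below). WT midpoints past the end lie at 383 to 4449 nt and none in the annotated 3′ UTR, while 21 KO tags lie within it.

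Single sites of Lnp rest on few WT tags. The cluster at chr2:74357191-74357255, whose site holds 3 motif words, had 3 WT and 19 KO tags (ratio 4.57, 1.34 to 24.1). Its 22 tags, with 9 distinct 5′ ends, came from 1 WT run and 5 KO runs, and some lay at the same position in several runs. The cluster at chr2:74354137-74354222, the farthest of the named ones from the gene, had 1 and 17 tags (ratio 12.3, 1.92 to 512). The cluster at chr2:74357868-74357976, the nearest, had 3 and 15 tags (3.60, 1.02 to 19.4). These were the Lnp clusters with at least 10 tags, and each had more KO than WT tags. The other 23 clusters of Lnp with at least 3 tags had 0 to 2 WT tags and 2 to 7 KO tags. Of the 26 sites, 16 (61.5%) held at least 1 motif word. The share was 22.0% over all windows of 30 bases along Lnp and 29.4% over those of its downstream stretch. Over the 1400 clusters of all RNAs with at least 20 tags it was 41.9%, and 73.6% over the 746 of them made mostly of tags other than single-base ones. A match is a description of the sequence, not a test of binding.

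The exon of Lnp that annotated transcripts skip held no tags. It is exon 13 of transcript Lnp-004 (chr2:74366149-74366231, 83 nt), which Lnp-001 lacks. Its length is not a whole number of codons. With 300 nt on both sides it had 0 WT and 0 KO tags, which, taken as up to 3 tags, allows up to 8.73 and 6.30 normalised tags. At this depth a difference at the exon was not detectable.

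The ratio of Lnp depended on how tags were scaled and kept. It was 2.78 when scaled so that the median cluster has a ratio of 1, 2.96 with tags of at least 2 reads and 3.38 without single-base tags. It was 8.17 over the gene body alone, 8.22 with KO reads thinned to the WT read total and 11.1 with tags of at least 30 nt, and every one of the 23 settings run gave an interval above 1. Part of the KO tags of Lnp lay at a position that another KO run also held. With tags at the same position collapsed, 23 WT and 120 KO tags gave 4.07 (2.59 to 6.66). Downstream of Lnp, 21 and 94 tags then gave 3.49 (2.16 to 5.90).

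**Figure D4:**
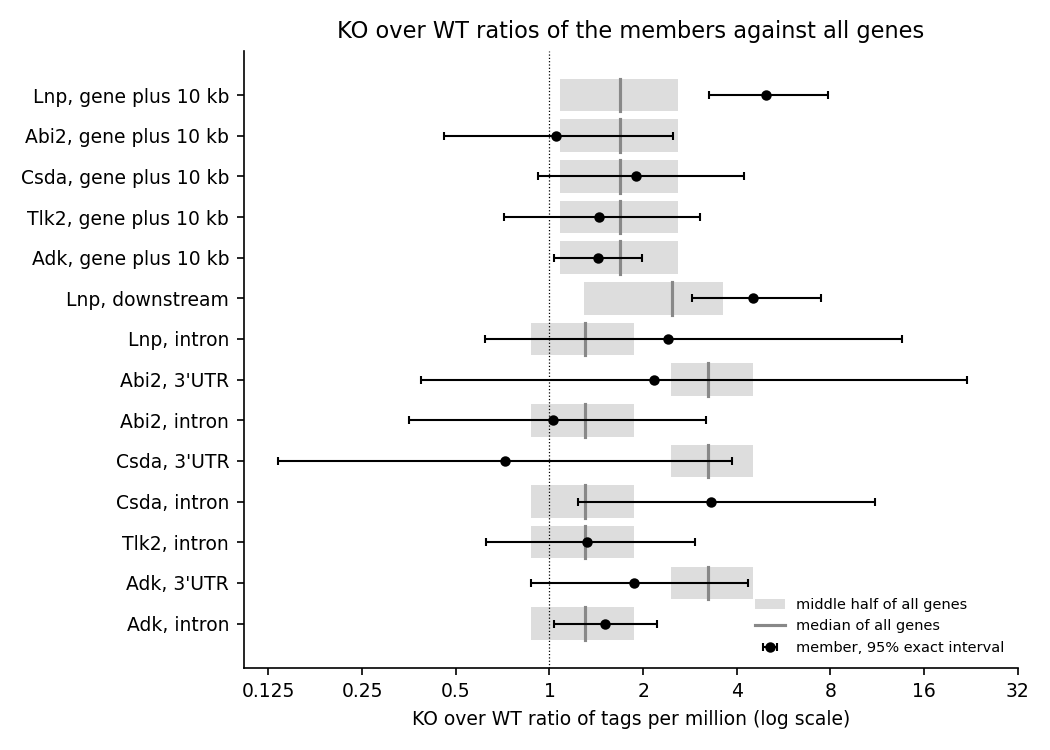
KO over WT ratios of normalised tags (log scale) for each gene and for selected regions with tags in both tables. The other exons of Csda and the downstream sequence of Tlk2 also had tags in both but are not drawn. Points and bars give the ratio with its exact 95% interval, and grey bands and lines the quartiles and the median of all genes with at least 20 tags in that kind of region. Lnp (4.96) lies above the upper quartile of all genes, and the other 4 genes lie between 1.05 and 1.90.

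Csda had its KO tags mostly in introns. Csda (ENSMUSG00000030189.8, chr6:131314876-131338468, minus strand) had 32.0 WT and 60.9 KO normalised tags. Its introns held 5 of the 11 WT tags and 23 of the 29 KO tags, with a ratio of 3.32 (1.23 to 11.2). Of the 2477 genes with at least 20 intronic tags, 19.7% had an intronic interval above 1, and their median ratio was 1.30. Within 300 nt of an exon lay 1 of the 5 WT and 14 of the 23 KO intronic tags, some of them at the same position, and 24.5% of the intron sequence of this short gene lies that close. Over all genes with at least 20 tags, whose introns differ in length, 9.82% of intronic tags did. The interval of the intronic ratio included 1 in 5 of 20 settings. These were tags of at least 2 reads, where 3 and 12 tags gave 1.49 (0.403 to 8.25), single-base tags left out, 2.26 (0.841 to 7.62), both together, 1.25 (0.338 to 6.92), scaling to the median cluster, 1.86 (0.692 to 6.27), and the second WT run left out, 3.28 (0.991 to 17.1). The ratio of the whole gene was 0.793 with tags of at least 2 reads and 5.29 with tags of at least 30 nt. The 3′ UTR held 4 and 4 tags and the other exons 2 and 2, and no tag lay downstream.

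Exon 6 is the exon of Csda that annotated transcripts include or skip (chr6:131325992-131326198, 207 nt, a whole number of codons). The exon itself holds 7 motif words and had 1 WT and 0 KO tags. The 300 nt before it had 1 and 6 tags, and the 300 nt after it 0 and 2. Over the exon and both flanks this is 2 WT and 8 KO tags. The cluster before the exon (chr6:131326428-131326461) accounts for 1 WT and 5 KO tags, from 1 WT run and 4 KO runs, and its site, printed above, holds 3 motif words. Its ratio of 3.60 had an interval of 0.403 to 170, which includes 1. This cluster falls outside the rule for named clusters and was chosen after its values were seen. The whole intron before the exon (chr6:131326199-131329375) held 5 WT and 9 KO tags (1.30, 0.391 to 4.93). These include all 5 WT intronic tags of the gene. Another cluster in this intron (chr6:131326766-131326785) had 2 WT and 1 KO tags (0.360, 0.00611 to 6.92). All 4 sites of Csda clusters with at least 3 tags held a motif word, and 30.4% of all windows along the gene did. The counts were 8 of 15 sites at Adk, 2 of 5 at Tlk2 and 1 of 2 at Abi2, where 24.3%, 25.4% and 24.8% of all windows did.

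**Figure D5:**
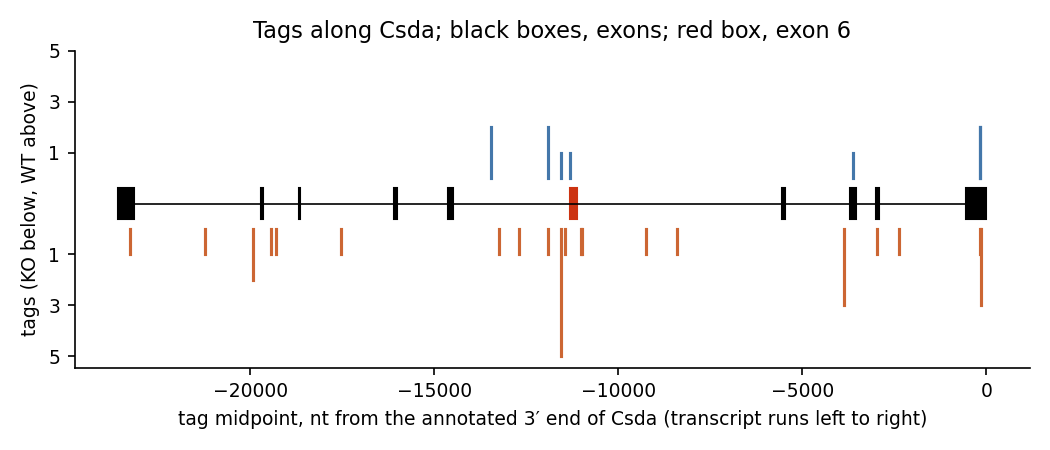
Tags along Csda by the distance of their midpoint from the annotated 3′ end (nt), WT above and KO below the gene, with line height giving the number of tags whose midpoints round to the same 10 nt. Black boxes are exons and the red box is exon 6, before which the tallest KO line (5 tags) stands.

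Adk is the longest of the 5 genes and had the most WT tags. Adk (ENSMUSG00000039197.8, chr14:21871855-22267769, plus strand) had 172 WT and 246 KO normalised tags. Its introns, 394214 nt in sum, held 43 and 90 tags, with a ratio of 1.51 (1.04 to 2.22), whose interval included 1 in 10 of 21 settings, such as 1.15 (0.767 to 1.76) without single-base tags. Its 3′ UTR of 609 nt held 10 and 26 tags (1.87, 0.875 to 4.36). Per length, the 3′ UTR carried 59.1 pooled tags per kb and the introns 0.337. This made the 3′ UTR of Adk the densest region among those of the 5 genes, ahead of the downstream stretch of Lnp with 16.0 tags per kb. Of the 3′ UTR clusters, chr14:22267710-22267756 had 3 WT and 9 KO tags (2.16, 0.540 to 12.4) and chr14:22267252-22267326 had 4 and 7 (1.26, 0.321 to 5.88). The intervals of both include 1.

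The largest cluster of Adk (chr14:22082984-22083027, 7 WT and 18 KO tags) lay within the annotated copy of 7SK (chr14:22082846-22083081, same strand), an RNA that holds the elongation factor P-TEFb. Reads from other copies of 7SK may be placed here, and the 7 WT tags came from 1 run. With the tags over this copy left out, the introns of Adk had 36 and 72 tags, and the ratio of 1.44 had an interval that includes 1 (0.954 to 2.22). Downstream of Adk lay 6 WT tags, of which 5 were single-base tags, and 0 KO tags. Single-base tags were 13 of the 59 WT and 8 of the 117 KO tags of the gene. Without single-base tags, Adk had a ratio of 1.17 (0.819 to 1.68), without the second WT run 1.22 (0.849 to 1.79), without the first WT run 1.35 (0.969 to 1.90) and without the first KO run 1.41 (0.991 to 2.01). Its call was lost in 10 of 23 settings, and it turned to 0.803 when scaled to the median cluster. On the opposite strand of the gene body lay 34 WT and 29 KO tags. No exon of Adk was taken as a cassette exon.

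Tlk2 had tags in its introns and downstream only. Tlk2 (ENSMUSG00000020694.9, chr11:105040121-105145273, plus strand) had 37.8 WT and 54.6 KO normalised tags. Its introns held 12 and 22 tags (1.32, 0.626 to 2.93). The 3′ UTR (3503 nt) and the other exons (4567 nt) held 0 WT and 0 KO tags. Downstream lay 1 WT and 4 KO tags. The cluster at chr11:105080684-105080704, the first of 5 clusters with 3 tags each, had 0 WT and 3 KO tags, which lay at 1 and the same position in 3 KO runs. Of the others, chr11:105082079-105082099 had 0 and 3 tags and chr11:105152792-105152839 had 1 and 2. The clusters at chr11:105088349-105088372 and chr11:105122812-105122835 each had 2 WT and 1 KO tags (0.360, 0.00611 to 6.92). The exons that annotated transcripts skip, numbered 6, 8 and 10, had 0 and 0 tags with 300 nt on both sides. At this depth a difference at these exons was not detectable.

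Abi2 had the fewest tags and a ratio near 1. Abi2 (ENSMUSG00000026782.8, chr1:60466539-60537999, plus strand) had 32.0 WT and 33.6 KO normalised tags. Its introns held 7 and 10 tags (1.03, 0.354 to 3.19), its 3′ UTR 2 and 6 (2.16, 0.387 to 21.9), and 1 WT tag each lay in another exon and downstream. The cluster in the 3′ UTR (chr1:60534427-60534450) had 0 WT and 5 KO tags, and 1 of these tags held 10104 of the cluster's 10128 KO reads. The skipped exon 4 (chr1:60495786-60495803) has 18 nt and holds 1 motif word, as printed here on the plus strand.
Abi2 exon 4: tggtTGCTtagatttaag
This exon had no tag of its own, and 1 KO tag lay within 300 nt before it. Exon 8 (chr1:60506915-60507097, 183 nt) holds 9 motif words and had no tag of its own either. Within 300 nt after it lay 1 WT and 1 KO tag. Exons are numbered as in the annotation, and the exon of Abi2 that the study names by number was not matched to it. The opposite strand of the gene body held 10 WT and 9 KO tags, beside 10 and 16 on the gene's own strand. The interval of the ratio of Abi2 spans a fall to 0.457 and a 2.50-fold rise as well as no change.

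The other genes of the pathways of the 5 genes were counted in the same way. Of 10 genes that shape the ER network, 7 had at least 20 tags, with 4 intervals above 1 (36.9% of all genes) and 1 below, and a median ratio of 1.84 (1.68 over all genes). Rtn4, a reticulon that bends ER tubules, had the most, with 64 WT and 352 KO tags (3.97, 3.03 to 5.26). Atl3, an atlastin GTPase that fuses tubules, had 5 and 41 (5.91, 2.34 to 19.2). Reep5 had 15 and 68 (3.27, 1.85 to 6.16) and Atl2 22 and 56 (1.84, 1.10 to 3.16). Rtn1 had 18 and 11 (0.441, 0.188 to 0.985), the interval below 1.

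Of 11 annotated WAVE complex and Abi genes, 5 had at least 20 tags, with 3 intervals above 1, beside the 36.9% of all genes, and none below, and a median of 1.69. Rac1, the GTPase that activates the complex, had 23 and 82 tags (2.57, 1.60 to 4.28). Nckap1 had 4 and 21 (3.78, 1.28 to 15.2) and Wasf2 26 and 61 (1.69, 1.05 to 2.79). The lowest was Cyfip1 with 14 and 30 (1.54, 0.794 to 3.15). Abi1, a paralog of Abi2, had 16 and 37 (1.67, 0.905 to 3.21).

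Ybx1, a paralog of Csda among the cold shock domain genes, had 15 WT and 13 KO tags (0.625, 0.274 to 1.41). Of 7 kinase and histone chaperone genes around Tlk2, Tlk1 alone reached 20 tags, with 11 and 32 (2.10, 1.03 to 4.61). Of 16 genes of purine nucleoside metabolism, 6 reached 20 tags, with 2 intervals above 1, again beside 36.9% of all genes, and none below, and a median of 1.77. Ampd1, the AMP deaminase of muscle, had 7 and 59 tags (6.08, 2.77 to 15.8). Hprt, which salvages purine bases, had 5 and 29 (4.18, 1.60 to 13.8). Nt5e, which makes adenosine outside the cell, had 17 and 12 (0.509, 0.222 to 1.13).

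Genes whose tags lie in like places were found by the distance between the shares of tags in 4 regions in both tables, over 4116 genes. Nearest to Lnp were Gatad2b (distance 0.0508) and Smarce1 (0.0780), with ratios of 1.37 (0.606 to 3.30) and 1.80 (0.760 to 4.73). Both thus had most tags downstream, at a lower number of KO tags (19 and 20) than Lnp. Nearest to Csda were Pfkfb3 (0.0982) and Itsn1 (0.122), with ratios of 2.66 (1.42 to 5.36) and 2.45 (1.18 to 5.56). Nearest to Abi2 were Ghr (0.113) and Akap2 (0.114), with 1.89 (1.32 to 2.76) and 1.61 (0.946 to 2.84). Nearest to Tlk2 were Ankfn1 (0.00777) and Wdr33 (0.0181), with 0.669 (0.290 to 1.54) and 0.998 (0.462 to 2.22). Nearest to Adk were Mtss1 (0.0450) and Tcf4 (0.0515), with 2.45 (1.18 to 5.56) and 2.51 (1.67 to 3.88). The neighbours of Lnp and Tlk2 had lower ratios than these genes, and those of Csda, Abi2 and Adk higher ones, and every interval overlapped that of the member.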

How the data were processed

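Mbnl2 HITS-CLIP tags of quadriceps from 3 WT and 3 Mbnl1 KO mice were analysed. The authors kept reads of sufficient quality, placed them on mm9 with BWA (per the labels; version not given in the sources used here), took out potential PCR duplicates and merged mice by genotype. The deposited count of a tag is its number of collapsed reads, without normalization. Tags do not show which RNase level they came from.

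Any overlap with a region on the same strand counted as a tag of it, and counts were divided by the tags of the table (scipy 1.17.1, pandas 2.3.3 and numpy 2.4.6 under Python 3.11.15). A tag over several regions went to 3′ UTR, then exon, intron and downstream. Clusters pool both tables. Named were all 5 genes, up to 4 clusters per gene with at least 10 tags or else the largest, the list genes with the most tags and the highest and lowest ratio (others with intervals off 1, and Abi1, were added after their values were seen), and the 2 genes nearest in region shares. The genes and lists were chosen with earlier results of these data known. Counting and intervals were tested on simulated counts. With 1 table per genotype, no p-value was computed. The sources do not say how reads with several matches were placed. Alternatives covered scaling, tag filters, collapsing of tags, window length, and runs of rows left out. Some results of the cold shock domain and marker lists are not reported here.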

Additional observations from a re-analysis of the deposited data

How the results depend on the processing

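Depth limits the ratios, since 25 or fewer WT tags stand behind every gene but Adk. Scaled so that the median cluster has a ratio of 1, the KO/WT ratio was 2.78 at Lnp, 2.54 in the Lnp downstream stretch, 0.803 at Adk, 0.847 in the Adk introns, 0.810 at Tlk2 and 0.589 at Abi2, so the values of Adk, Tlk2 and Abi2 turned below 1. With tags of at least 2 reads the ratio was 2.96 at Lnp, 2.73 downstream of Lnp and 0.793 at Csda, and 2.48, 2.29 and 0.666 when single-base tags were dropped too. For tags 30 nt or longer the ratio was 11.1 at Lnp, 9.59 downstream of Lnp, 3.04 at Adk, 5.29 at Csda and 3.97 at Tlk2. With KO reads thinned to the WT total it was 8.22 at Lnp and 7.81 downstream of it, and over the body of Lnp alone 8.17. The number of genes with an interval above 1, 2 of 5, was 1 (Lnp) with the median cluster scaling, with single-base tags left out, with at least 2 reads, with both, with tags collapsed by position or by 5′ end, and with tags over other genes left out. It was 3 with raw tags and for tags 30 nt or longer (Csda added in both) and with KO reads thinned (Tlk2 added). The median ratio of all genes was 1.59 with at least 10 and 1.94 with at least 50 tags per gene, and 61.3% of the latter had an interval above 1. The cause was not tested.

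Leaving out 1 run of rows at a time, chosen after the data were seen, gave ratios of 3.87 to 8.42 at Lnp, 3.28 to 9.01 downstream of it, 1.22 to 1.99 at Adk, 1.77 to 2.27 at Csda, 1.24 to 2.04 at Tlk2 and 0.761 to 1.25 at Abi2, and 1 to 2 genes with an interval above 1. The highest Lnp, Lnp downstream and Adk values came without the third WT run. Abi2 lay above 1 in 14 of 23 settings. Repeat-masked tags were not left out, because the genome used here carries no mask, and the Csda intron ratio has no value with tags of at least 30 nt, where no WT tag was left. No paired analysis was possible because 1 merged table holds all mice of a genotype.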
